A study of Mus musculus with 8 samples.

Results

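The genes described here are the oxygen-sensing core of the hypoxia response and 1 of its best-known targets: the prolyl hydroxylase genes Egln1, Egln2 and Egln3, the asparaginyl hydroxylase gene Hif1an, the ubiquitin ligase gene Vhl, the alpha subunit genes Hif1a, Epas1 and Hif3a, and the growth factor gene Vegfa. They are 9 of 55487 gene rows, found by their Ensembl identifiers, and all 9 were among the 19450 genes with enough counts to be tested. RNA was sequenced from the epidermis of wild-type FVB mice, with their age given as 7 to 8 weeks, in 2 libraries for each of 4 groups. The DMBA group received 100 µl of 7,12-dimethylbenz[a]anthracene at 1 mg/ml on the back a single time, and its skin was taken on day 10. Control DMBA is its acetone-treated group. The DMBA/TPA group received the same DMBA dose and then 12-O-tetradecanoylphorbol-13-acetate at 0.1 mg/ml 2 times per week, and its skin was taken on day 52. Control DMBA TPA is the acetone-treated group of that regimen. The same age is given for all groups although skin was taken on day 10 or day 52, so the groups need not be matched in age at harvest. DMBA is a carcinogenic hydrocarbon that initiates skin tumours, and TPA, a phorbol ester and activator of protein kinase C, promotes their growth. The labels give no harvest day for the acetone groups and do not say that libraries of a group came from separate animals, so the p-values cover no more than the spread of these libraries, and that spread may be technical.

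When oxygen is plentiful, the prolyl hydroxylases modify the alpha subunits of the hypoxia-inducible factors (HIFs), the Vhl protein then binds the modified subunit, and the proteasome destroys it. Hif1an hydroxylates an asparagine that the coactivators Crebbp and Ep300 need free. In low oxygen these enzymes slow down, the alpha subunits pair with Arnt, and genes of glucose uptake, glycolysis and vessel growth are switched on, Egln1, Egln3 and Vegfa among them. Skin epidermis lacks vessels of its own, and keratinocytes secrete Vegfa during wound healing and tumour promotion. Because the alpha subunits are controlled mostly as proteins, their messenger levels do not report HIF activity.

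Counts assigned to genes came to between 26300400 and 36002886 per library. The labelled tissue carried its defining markers: the 6 keratinocyte genes sum to between 31638 and 52873 CPM (counts scaled to library sizes after trimmed mean of M values correction) in every library. On the first principal component, with 55.8% of the variance, the DMBA/TPA libraries lay at 81.5 and 109 and the Control DMBA TPA libraries at -90.1 and -84.1, while the DMBA libraries lay at 8.84 and -12.4 and the Control DMBA libraries at -13.6 and 0.941. The acetone sets therefore stood apart from each other, and each treated group is set against its own. DMBA/TPA 2 had 16.4% of its reads unaligned, against 3.8% to 9.82% in the other libraries.

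Egln3 and Vegfa were selected on their difference between the DMBA and Control DMBA libraries, so values of that comparison, and of the difference between the 2 regimens' responses, are given as a description with no test. The members and lists were also chosen with earlier results of these data known. The DMBA/TPA comparison shares no library with the DMBA comparison and was tested, though with a spread estimated from all 8 libraries. There, 5 of the 9 genes rose, namely Egln1, Egln3, Vhl, Epas1 and Vegfa, with increases of 2.13-fold to 5.01-fold, and 0 fell, also by DESeq2, by limma voom and at an unadjusted p under 0.05. In bulk RNA such as this, more or fewer cells of a type cannot be told apart from more or less RNA per cell. Calls were common in that comparison: of all 19450 genes tested, 40.7% were called, 22.4% higher and 18.3% lower, by edgeR's quasi-likelihood test at an adjusted p under 0.05. The 5 calls among 9 genes stand beside those shares and are not shown to be particular to these genes. Without DMBA/TPA 2 the count over all genes fell to 4829, and without Control DMBA TPA 1 and 2 it was 3704 and 4369, in place of 7917. Both DMBA/TPA libraries lay above both Control DMBA TPA libraries for 7 of the 9 genes and below them for 2, Hif1an and Hif3a, where 37.6% of all genes tested lay above, 37.3% below and 74.9% either way.

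**Figure D1:**
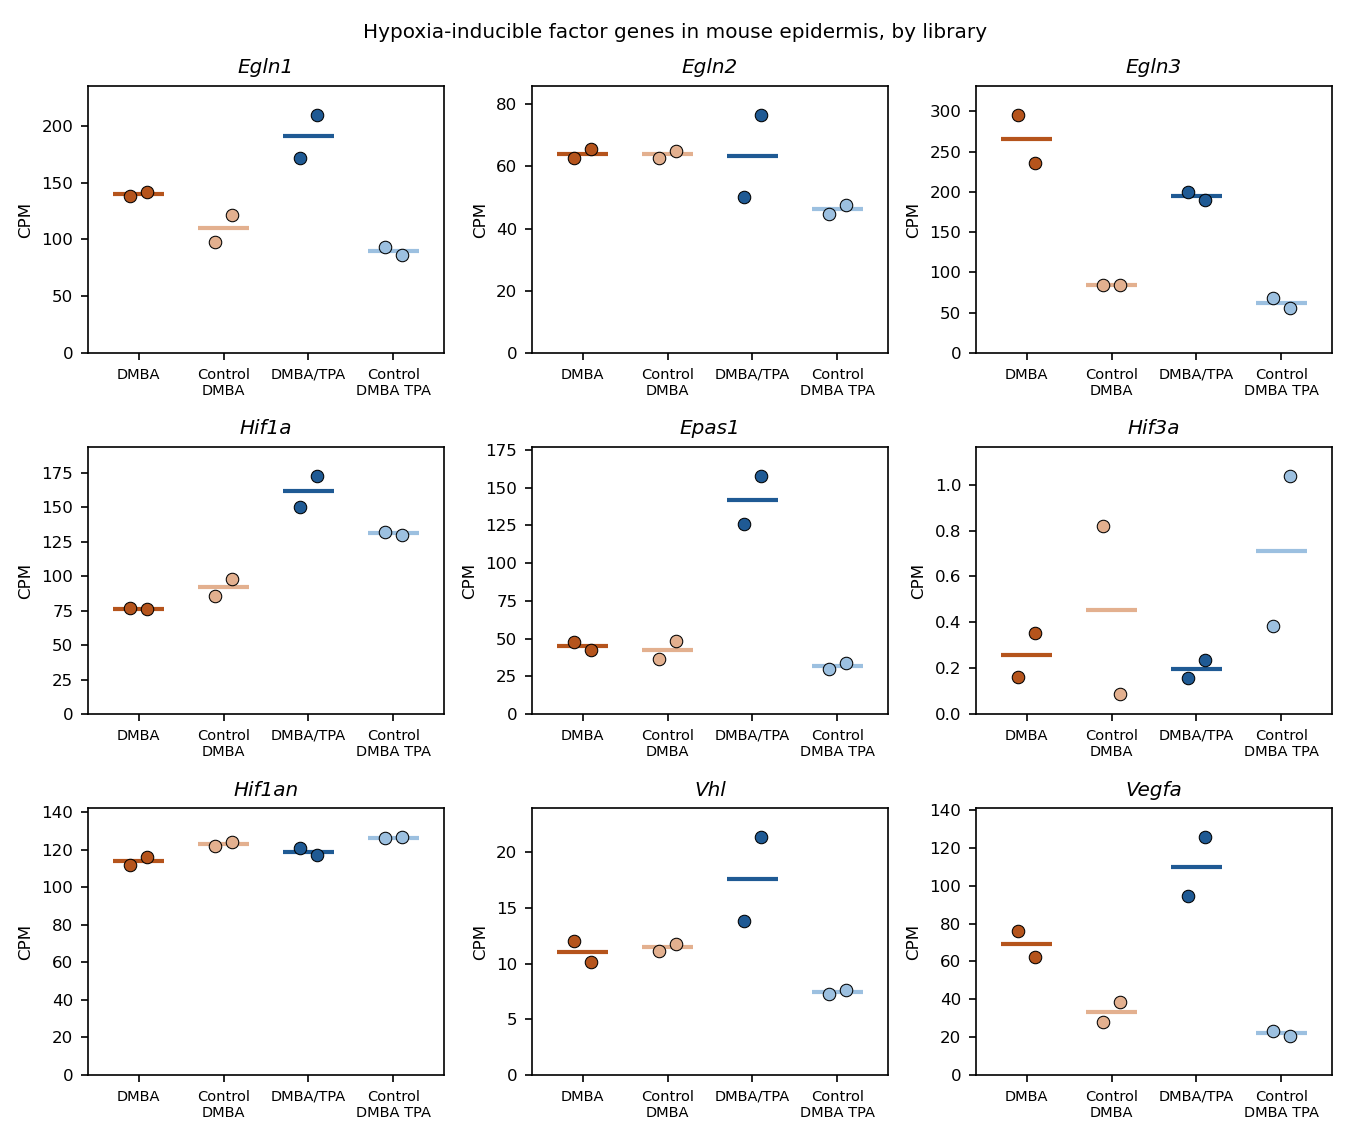
Normalised level in CPM (vertical axis, from 0) of each of the 9 genes by group, with 1 point per library and a line at the mean of 2 libraries. Egln3 is high in both DMBA and both DMBA/TPA libraries, at 190 to 296 CPM, against 56.2 to 84.3 CPM in the 4 acetone libraries, while Epas1 is high in the DMBA/TPA libraries, at 126 and 158 CPM.

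Of the prolyl hydroxylases, Egln3 (ENSMUSG00000035105; mm10 chromosome 12, 54178981 to 54203860, minus strand) had the widest range. This enzyme is itself a HIF target and in other cells acts as a feedback brake. Egln3 stood at 296 and 236 CPM in DMBA, against 84 and 84.3 CPM in Control DMBA. It stood at 200 and 190 CPM in DMBA/TPA, against 68.6 and 56.2 CPM in Control DMBA TPA. Both treated pairs lay above all 4 acetone libraries, and DMBA lay above DMBA/TPA, with no overlap between any neighbouring groups. In the tested comparison Egln3 rose 3.13-fold in DMBA/TPA relative to Control DMBA TPA (log2 fold change 1.65 ± 0.14 SE, adjusted p = 0.000403). The DMBA log2 fold change, as a description, was 1.66 ± 0.14 SE. The DMBA/TPA response minus the DMBA response was -0.01 ± 0.19 SE (log2), also as a description. The DMBA value was 1.49 and 1.81 on leaving out DMBA 1 and DMBA 2. Against Control DMBA, whose libraries helped to select Egln3, its DMBA/TPA value was 1.21 on the log2 scale, also as a description.

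Egln1 (ENSMUSG00000031987; chromosome 8, 124908587 to 124949324, minus strand) encodes the hydroxylase that does most of the work on HIF alpha in normal oxygen. Its level was 172 and 210 CPM in DMBA/TPA, against 93.3 and 86 CPM in Control DMBA TPA. In DMBA it was 138 and 142 CPM, against 97.9 and 122 CPM in Control DMBA. The groups ran DMBA/TPA, DMBA, Control DMBA, Control DMBA TPA from high to low, and no neighbours overlapped. Egln1 rose 2.13-fold in DMBA/TPA (log2 1.09 ± 0.14 SE, adjusted p = 0.00122), and the DMBA log2 fold change was 0.35 ± 0.14 SE. Against Control DMBA the DMBA/TPA value of Egln1 was smaller, at 0.80 on the log2 scale.

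Egln2 (ENSMUSG00000058709; chromosome 7, 27158658 to 27166802, minus strand), the member of the trio that hypoxia is not known to induce, was not called. DMBA gave 62.6 and 65.5 CPM, against 62.7 and 65 CPM in Control DMBA. DMBA/TPA gave 50.1 and 76.6 CPM, against 44.6 and 47.7 CPM in Control DMBA TPA. The DMBA/TPA libraries straddled both groups of the DMBA set, and Control DMBA TPA alone lay below the rest. Its DMBA/TPA log2 fold change of 0.46 ± 0.18 SE did not pass the test (adjusted p = 0.0687). It was called without DMBA/TPA 1 (log2 0.74, adjusted p = 0.00106), by DESeq2 (adjusted p = 0.0417) and without the low-count filter (adjusted p = 0.0278). Against Control DMBA the value was -0.01 (adjusted p = 0.97), the highest p over 17 alternatives.

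Taken per kilobase of exon, which allows levels to be compared between genes, Egln3 made up 64.6% and 58.5% of the summed prolyl hydroxylase level in DMBA, against 38.9% and 35.7% in Control DMBA. In DMBA/TPA its share was 53.4% and 45.5%, against 38.1% and 34% in Control DMBA TPA. Egln3 was the most abundant of the trio in all 4 treated libraries. In Control DMBA 2 and both Control DMBA TPA libraries Egln1 had the larger share, at 38.2%, 38.4% and 38.6%. The summed level was 172 and 151 CPM per kb in DMBA, against 81.2 and 88.8 in Control DMBA. It was 141 and 157 CPM per kb in DMBA/TPA, against 67.6 and 62.1 in Control DMBA TPA.

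**Figure D2:**
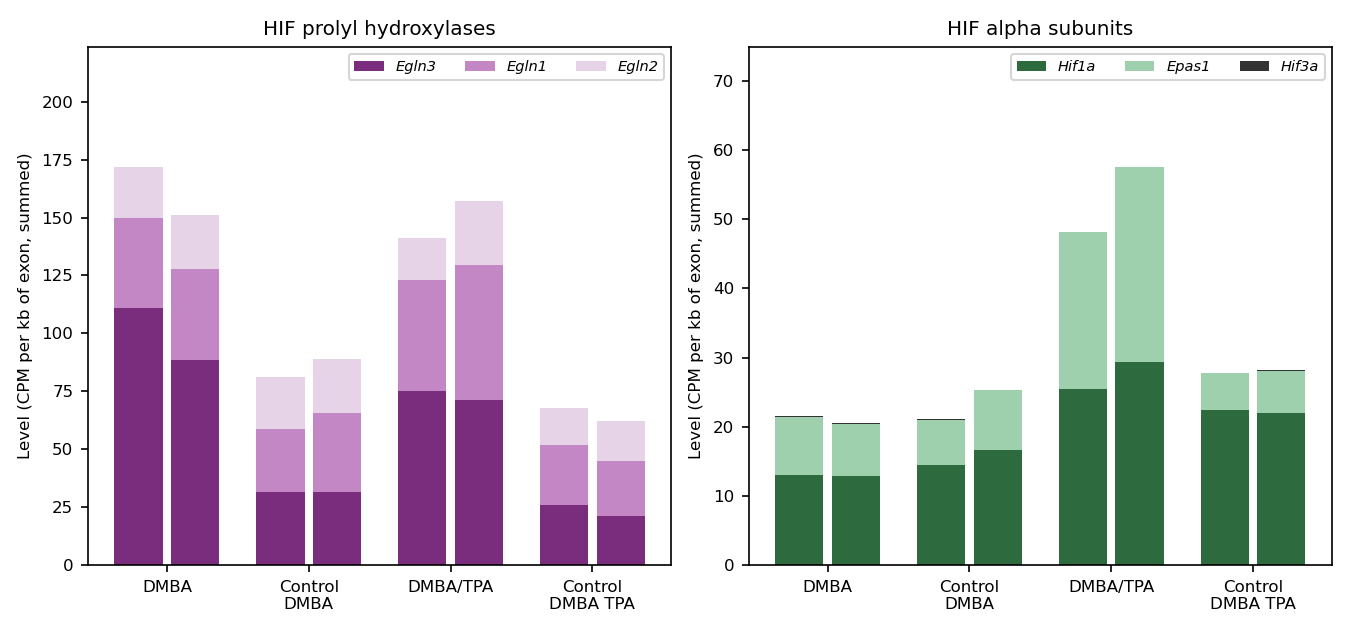
Summed level in CPM per kb of exon (vertical axis, from 0) of the prolyl hydroxylase genes (left) and of the alpha subunit genes (right), with 1 bar per library, stacked by gene, in pairs by group. The hydroxylase sum is 141 to 172 in the treated libraries and 62.1 to 88.8 in the acetone libraries, and the alpha subunit sum is highest in DMBA/TPA, at 48.1 and 57.6.

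Hif1an and Vhl, which act beside and after the prolyl hydroxylases, differed from each other. Hif1an (ENSMUSG00000036450; chromosome 19, 44562850 to 44576274, plus strand) was the steadiest of the 9 genes. It had 112 and 116 CPM in DMBA, against 122 and 124 CPM in Control DMBA, and 121 and 117 CPM in DMBA/TPA, against 126 and 127 CPM in Control DMBA TPA. Its DMBA/TPA log2 fold change was -0.08 ± 0.08 SE (adjusted p = 0.454), and both treated groups lay below both acetone groups without overlap, over a span from 112 to 127 CPM.

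Vhl (ENSMUSG00000033933; chromosome 6, 113623959 to 113631633, plus strand), the substrate receptor of the ligase that marks hydroxylated HIF alpha for destruction, had 13.8 and 21.4 CPM in DMBA/TPA, against 7.29 and 7.67 CPM in Control DMBA TPA. In DMBA it had 12 and 10.1 CPM, against 11.1 and 11.8 CPM in Control DMBA, and these groups overlapped. Vhl rose 2.35-fold in DMBA/TPA (log2 1.24 ± 0.22 SE, adjusted p = 0.00389). That call depended on which acetone group was used: against Control DMBA the log2 fold change was 0.62 (adjusted p = 0.0735), the highest p over 17 alternatives, whose lowest was 5.09e-06. The 2 DMBA/TPA libraries were also further apart than those of any other group.

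Among the alpha subunits, Epas1 rose and Hif1a did not pass the test after DMBA/TPA. Epas1 (ENSMUSG00000024140; chromosome 17, 86753700 to 86833410, plus strand) encodes HIF-2 alpha, which is known for its high expression in endothelium. It stood at 126 and 158 CPM in DMBA/TPA, against 30.1 and 33.8 CPM in Control DMBA TPA. In DMBA it stood at 47.5 and 42.3 CPM, against 36.2 and 48.1 CPM in Control DMBA. The DMBA and Control DMBA ranges overlapped, and the DMBA/TPA libraries lay above all others. The increase in DMBA/TPA was 4.44-fold (log2 2.15 ± 0.17 SE, adjusted p = 0.000328), and against Control DMBA it was 1.75 on the log2 scale.

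Hif1a (ENSMUSG00000021109; chromosome 12, 73901375 to 73947530, plus strand) encodes HIF-1 alpha, the widely expressed subunit that drives the glycolytic response. It had 150 and 173 CPM in DMBA/TPA, against 132 and 130 CPM in Control DMBA TPA. In DMBA it had 76.6 and 75.9 CPM, against 85.7 and 98.3 CPM in Control DMBA. The DMBA/TPA libraries thus lay above their acetone pair and the DMBA libraries below theirs. The DMBA/TPA log2 fold change of 0.31 ± 0.11 SE did not pass (adjusted p = 0.0523), and it passed in 4 of 17 alternatives, with adjusted p from 0.00365 to 0.226. These 4 were RLE scaling, DESeq2, leaving out DMBA/TPA 1, and Control DMBA as the acetone group (log2 0.81). Of its exon length, 5.6% overlaps an antisense gene and 2.51% a gene on the same strand, and the strand setting of the counting is not given in the sources used here.

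Hif3a (ENSMUSG00000004328; chromosome 7, 17031507 to 17062427, minus strand), whose products include inhibitors of the other alpha subunits, was near the limit of detection. It had 0.157 and 0.235 CPM in DMBA/TPA, against 0.384 and 1.04 CPM in Control DMBA TPA. It had 0.162 and 0.353 CPM in DMBA, against 0.821 and 0.0855 CPM in Control DMBA. The 2 libraries of Control DMBA were further apart than any group means, and no difference was detectable at this depth (DMBA/TPA log2 -1.87 ± 0.99 SE, adjusted p = 0.162). Per kilobase of exon, Hif1a held 53% and 51% of the summed alpha subunit level in DMBA/TPA, against 80.4% and 78% in Control DMBA TPA. Epas1 held 47% and 49% in DMBA/TPA, against 19.4% and 21.4% in Control DMBA TPA, so the pair came close to equal messenger levels there.

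Vegfa (ENSMUSG00000023951; chromosome 17, 46016993 to 46032369, minus strand), the secreted factor that drives endothelial growth through Kdr, had 94.4 and 126 CPM in DMBA/TPA, against 23.2 and 20.8 CPM in Control DMBA TPA. In DMBA it had 76.2 and 62.3 CPM, against 28 and 38.5 CPM in Control DMBA. All 4 treated libraries lay above all 4 acetone libraries, DMBA/TPA lay above DMBA, and Control DMBA lay above Control DMBA TPA, with no overlap between neighbours. Vegfa rose 5.01-fold in DMBA/TPA (log2 2.32 ± 0.20 SE, adjusted p = 0.000412). As a description, the DMBA log2 fold change was 1.06 ± 0.19 SE and the DMBA/TPA response minus the DMBA response was 1.27 ± 0.27 SE. Against Control DMBA, whose libraries helped to select Vegfa, the DMBA/TPA value was 1.72 on the log2 scale, also as a description.

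In the DMBA comparison, both DMBA libraries lay above both Control DMBA libraries for 3 of the 9 genes, below them for 2, and the groups overlapped for 4. Over all genes tested, 39.3% showed no overlap there, 19.1% above and 20.2% below. The 3 genes above were Egln1, Egln3 and Vegfa, and the 2 below were Hif1a and Hif1an. Only 2.61% of genes tested had a log2 fold change of at least 1, as Egln3 and Vegfa did. Since that comparison chose them, nothing is read from these shares. Set against the other acetone group, Control DMBA TPA, the DMBA log2 fold changes were 2.09 for Egln3, 1.66 for Vegfa, 0.64 for Egln1, 0.57 for Vhl, 0.49 for Epas1 and -0.78 for Hif1a.

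**Figure D3:**
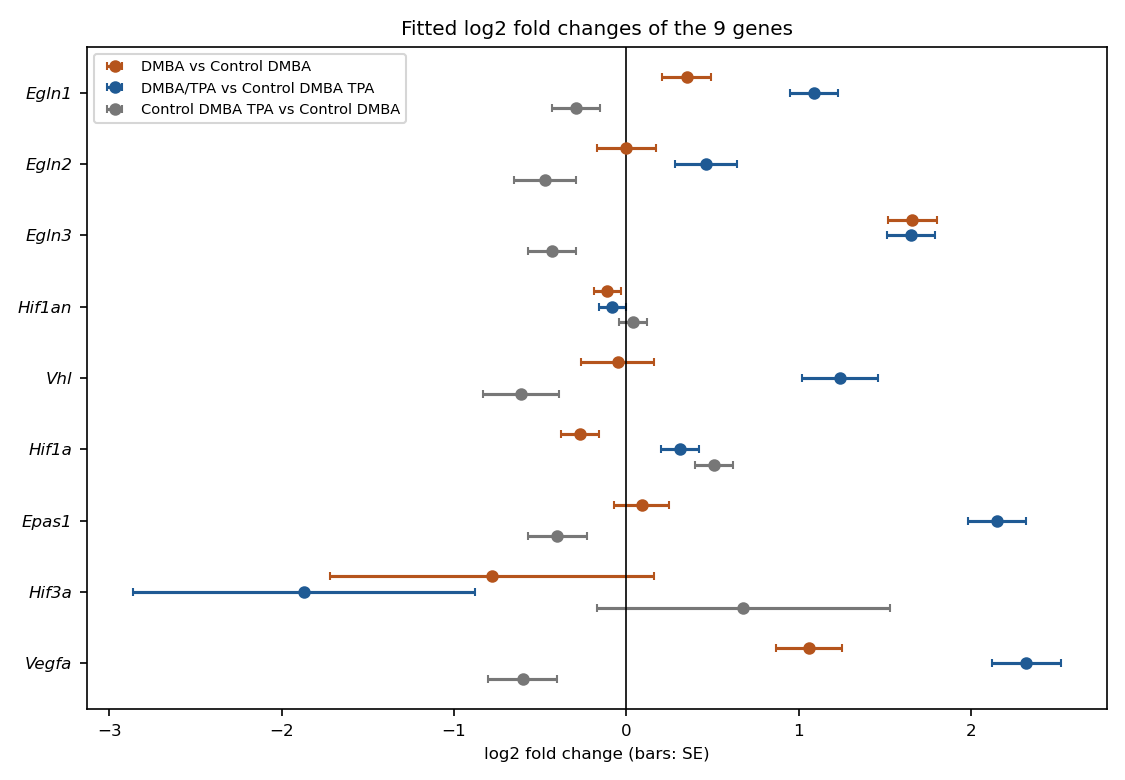
Fitted log2 fold change (horizontal axis, bars are SE) of each gene in DMBA relative to Control DMBA, DMBA/TPA relative to Control DMBA TPA, and Control DMBA TPA relative to Control DMBA. Egln3 has about the same estimate in both treated groups (1.66 and 1.65), while Epas1 and Vhl are near 0 in DMBA (0.09 and -0.05) and at 2.15 and 1.24 in DMBA/TPA.

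The acetone groups also differed from each other. Control DMBA TPA lay above Control DMBA without overlap for 2 of the 9 genes and below it for 6, where 28.8% of all genes tested lay above, 31.4% below and 60.2% either way. Hif1a was 1.42-fold higher in Control DMBA TPA (log2 0.51 ± 0.11 SE, adjusted p = 0.0354), the 1 call among the 7 members tested in that comparison, in which 6.25% of all genes tested were called, 1.97% higher and 4.28% lower. No member was called lower, also by DESeq2 and limma voom, with 3 of 7 lower at an unadjusted p under 0.05. The Hif1a call was lost on leaving out any of the 2 DMBA, 2 Control DMBA or 2 Control DMBA TPA libraries, with adjusted p from 0.0567 to 0.233. Leaving out DMBA/TPA 1 or DMBA/TPA 2 gave Egln2 (adjusted p = 0.0151 and 0.0143) and Vhl (0.0322 and 0.0335) as lower. For Egln3 and Vegfa, the log2 fold change of Control DMBA TPA relative to Control DMBA was -0.43 ± 0.14 SE and -0.60 ± 0.20 SE, given as a description because Control DMBA was among the libraries that selected them. The count over all genes in this comparison, 1216, moved with each library: 43 and 119 genes were called on leaving out Control DMBA TPA 1 or 2, 490 and 563 for Control DMBA, 655 and 651 for DMBA, and 2598 and 2572 for DMBA/TPA.

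The sequences before the start sites of Egln3, Egln1 and Vegfa are shown because these HIF targets were all higher in both treated groups. They come from RefSeq on GRCm38.p6, the build of mm10, which had windows for 8 of the 9 genes, and each runs from 5′ to 3′ toward the start. Capitals mark the core of the hypoxia response element, ACGTG or GCGTG on either strand. The Egln3 and Vegfa stretches are the 250 bases before the RefSeq start (chr12:54203875-54204124 and chr17:46032378-46032627, minus strand). The Egln1 stretch is the 180 bases of its window (chr8:124949325-124949504, minus strand) that lie outside the GENCODE gene.
Egln3: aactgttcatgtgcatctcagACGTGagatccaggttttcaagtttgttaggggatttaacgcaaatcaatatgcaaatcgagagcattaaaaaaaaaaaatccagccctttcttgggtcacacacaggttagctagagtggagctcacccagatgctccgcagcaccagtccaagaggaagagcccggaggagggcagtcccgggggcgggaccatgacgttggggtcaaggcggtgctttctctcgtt
Vegfa: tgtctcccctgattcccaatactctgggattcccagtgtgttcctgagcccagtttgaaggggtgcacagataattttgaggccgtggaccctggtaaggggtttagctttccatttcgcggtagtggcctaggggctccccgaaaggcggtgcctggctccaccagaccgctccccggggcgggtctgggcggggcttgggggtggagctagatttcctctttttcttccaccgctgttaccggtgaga
Egln1: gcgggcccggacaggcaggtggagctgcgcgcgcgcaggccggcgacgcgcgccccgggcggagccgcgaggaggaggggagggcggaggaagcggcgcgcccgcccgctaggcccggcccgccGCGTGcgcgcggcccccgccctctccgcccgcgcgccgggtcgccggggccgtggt
The Egln3 stretch held 1 core, whose first base is at -229, and the Egln1 stretch also held 1, at -126, where -1 is the base before the RefSeq start. The Vegfa stretch held none, which says only that these letters are absent from this window. A second RefSeq start of Vegfa, inside the GENCODE gene, had cores at -218 and -211, and the Egln1 window had another at -68, also inside the gene. In all, 7 of the 10 windows of these 8 genes held at least 1 core, and they belonged to 6 of the genes. At least 1 core occurred in the 250 bases before 38.6% of 32851 RefSeq starts, so a match is common. None of the windows of the 8 genes held the AP-1 site TGACTCA or TGAGTCA, the element through which phorbol esters are known to act, which 4.46% of all windows held.

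The rest of the pathway was read from 5 lists of genes, in DMBA/TPA relative to Control DMBA TPA, beside a median log2 fold change of -0.003 over all genes tested, of which 22.4% rose and 18.3% fell. No list's count is shown to differ from those shares. The acetone groups differed in these lists too, so the values depend on the acetone group used. In Control DMBA TPA relative to Control DMBA, the median was -0.44 for glycolysis targets and -0.16 for HIF targets outside glycolysis. It was 0.11 for HIF partners, -0.57 for the VEGF family and -0.31 for other hydroxylases, beside -0.022 over all genes tested. Genes that HIF is known to induce in glucose uptake and glycolysis mostly rose. Of 18 measured, 14 rose, 0 fell (also 0 at an unadjusted p under 0.05, by DESeq2 and by limma voom) and 4 were not called, with a median of 1.55. Among these 4 was Aldoa, read from the single row ENSMUSG00000114515. That row had 2.01 and 1.84 CPM in DMBA/TPA, against 2.16 and 3.38 CPM in Control DMBA TPA. Other rows that may bear this symbol were not read, so its value may not be that of the main Aldoa gene. Hk2, the inducible hexokinase, had 134 and 243 CPM in DMBA/TPA, against 24.8 and 26.8 CPM in Control DMBA TPA (log2 2.87 ± 0.26 SE, adjusted p = 0.000445), and its log2 value against Control DMBA was 1.42. Pfkfb4, which makes an activator of phosphofructokinase, had 34.8 and 46.8 CPM, against 6.03 and 6.73 CPM (log2 2.67 ± 0.24 SE, adjusted p = 0.000445). The enzymes Pgk1 and Tpi1 rose by 1.54 and 1.44 on the log2 scale (adjusted p = 0.00103 and 0.00105). Both have near-identical pseudogene copies, so their counts are uncertain. Pdk1, the kinase that keeps pyruvate out of the mitochondrion, was named after its values were seen, and had -0.10 ± 0.11 SE (adjusted p = 0.483).

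HIF targets outside glycolysis were more mixed: of 23 measured out of 24, 14 rose, 1 fell and 8 were not called, with a median of 0.62. Epo had 0 counts in all 8 libraries. Ero1l, an oxidase of protein folding, rose by 1.24 ± 0.13 SE on the log2 scale (adjusted p = 0.000713). The mitochondrial protein gene Fam162a rose by 2.07 ± 0.26 SE (adjusted p = 0.00122). Hmox1, heme oxygenase, which is also a known target of other pathways, rose by 1.43 ± 0.17 SE (adjusted p = 0.000958). The gene that fell was Cited2, which competes with HIF alpha for coactivators (log2 -1.12 ± 0.21 SE, adjusted p = 0.00459). Against Control DMBA its call was lost (log2 -0.66, adjusted p = 0.057, with a range from 2.79e-06 over 17 alternatives). Car9, the carbonic anhydrase often used as a hypoxia marker, had 2.05 and 2.04 CPM in DMBA/TPA, against 1.74 and 0.962 CPM in Control DMBA TPA (log2 0.61 ± 0.35 SE, adjusted p = 0.192). Cited2 and Car9 were named after their values were seen.

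**Figure D4:**
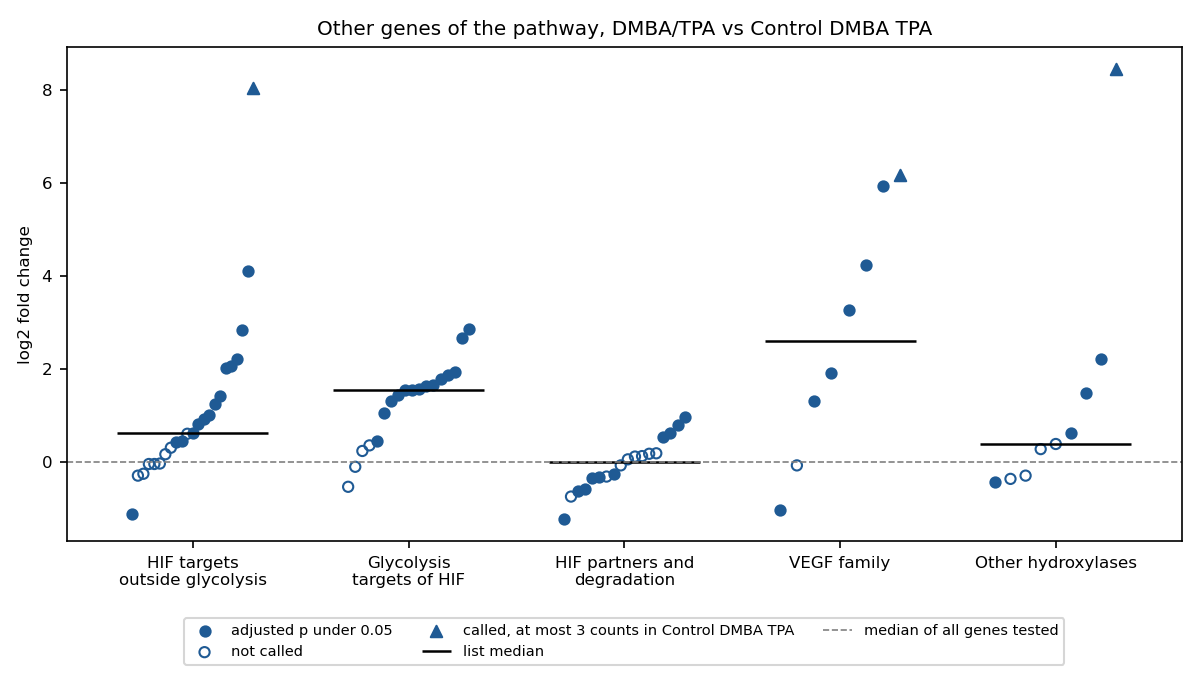
Log2 fold change in DMBA/TPA relative to Control DMBA TPA (vertical axis) of each measured gene of the 5 lists, sorted within a list, with filled symbols for adjusted p under 0.05, triangles for called genes with at most 3 counts in Control DMBA TPA, whose fitted values are no bounds, and a bar at the list median. Glycolysis genes have a median of 1.55 and HIF partners a median of -0.01, beside -0.003 for all genes tested.

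Genes of the HIF partners and of the degradation machinery split in both directions, with 4 higher, 6 lower and 8 not called of 18, and a median of -0.01. Rack1, which can bind HIF-1 alpha, and Siah2, a ligase that degrades prolyl hydroxylases, rose by 0.63 and 0.79 on the log2 scale (adjusted p = 0.00567 and 0.00512). Elob, a subunit of the Vhl ligase, rose by 0.53 (adjusted p = 0.00609), a call lost against Control DMBA (log2 0.30, adjusted p = 0.0763) and without Control DMBA TPA 2 (0.0577), the lowest of its 17 alternatives being 0.000794. Arnt2, a relative of Arnt, fell by 1.22 (adjusted p = 0.00418). Arnt itself, named after its values were seen, had 80.2 and 75 CPM in DMBA/TPA, against 93.3 and 92.6 CPM in Control DMBA TPA. Its log2 fold change of -0.26 ± 0.09 SE (adjusted p = 0.0429) kept its call in 4 of 17 alternatives, with adjusted p from 0.0163 to 0.46. The list's count rests on single libraries, at 4 called without DMBA/TPA 2 and 4 and 3 without Control DMBA TPA 1 and 2, in place of 10.

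Of 8 measured genes of the VEGF family and its receptors, out of 9, 6 rose, 1 fell and 1 was not called, with a median of 2.60. Flt1, a receptor that binds Vegfa and Pgf, had 25.3 and 30.3 CPM in DMBA/TPA, against 3.35 and 2.39 CPM in Control DMBA TPA (log2 3.28 ± 0.37 SE, adjusted p = 0.000831). In DMBA, Flt1 had 21 and 9.6 CPM, against 3.78 and 3.31 CPM in Control DMBA. Kdr, the main signalling receptor for Vegfa on endothelium, had 4.6 and 14.4 CPM in DMBA/TPA, against 0.0697 and 0.22 CPM in Control DMBA TPA (log2 5.93 ± 0.79 SE, adjusted p = 0.00143), and its log2 value against Control DMBA was 2.65. The coreceptor gene Nrp1 rose by 1.91 ± 0.34 SE (adjusted p = 0.00386), and by 1.09 against Control DMBA. Pgf, placental growth factor, had 71 counts in DMBA/TPA and 1 in Control DMBA TPA, a ratio of 90.7 with an exact 95% counting interval from 15.8 to 3630 that covers counting error only. Against Control DMBA, with 0.0586 and 0.143 CPM, the Pgf log2 value was 3.73. The gene that fell was Vegfd, named after its values were seen, at 9.44 and 7.95 CPM in DMBA/TPA, against 19.8 and 15.5 CPM in Control DMBA TPA (log2 -1.02 ± 0.19 SE, adjusted p = 0.00456).

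Of 9 genes of other hydroxylases that, like the Egln enzymes, use oxygen and 2-oxoglutarate but act on collagens, 4 rose, 1 fell and 4 were not called, with a median of 0.39. The gene that fell was P3h2, a collagen prolyl 3-hydroxylase named after its values were seen, at 79.4 and 81.3 CPM in DMBA/TPA, against 105 and 111 CPM in Control DMBA TPA (log2 -0.43 ± 0.10 SE, adjusted p = 0.0131). Its call was lost without Control DMBA TPA 1 and without Control DMBA TPA 2, and without the second of these libraries 3 genes of the list rose and 0 fell. Total-count scaling gave 4 higher and 3 lower. Plod2, a lysyl hydroxylase that HIF induces, had 3.62 and 7.72 CPM in DMBA/TPA, against 1.39 and 1.04 CPM in Control DMBA TPA (log2 2.22 ± 0.40 SE, adjusted p = 0.00424). In DMBA it had 5.53 and 4.65 CPM, against 1.58 and 1.08 CPM in Control DMBA. P4ha3 had 341 counts in DMBA/TPA and 1 in Control DMBA TPA, a ratio of 435 with a counting interval from 77.6 to 17200. Against Control DMBA, with 0.176 and 0.798 CPM, the P4ha3 log2 value was 3.76. P3h1 and P4ha2 rose by 1.49 and 0.62 on the log2 scale (adjusted p = 0.00464 and 0.00921), and both calls were lost against Control DMBA (adjusted p = 0.285 and 0.142, the highest of 17 alternatives whose lowest were 1.27e-05 and 0.00143). P4ha2 was also lost without Control DMBA TPA 2 (adjusted p = 0.0789). P4ha2 and Plod2 stand in the list of HIF targets too.

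Markers of other cell types were read in the same comparison, in which 22.4% of all genes tested were called higher and 18.3% lower. No marker count is shown to differ from those shares. The 10 endothelial markers, of which Kdr is 1, summed to 29.4 and 70.2 CPM in DMBA/TPA, against 1.08 and 1.9 CPM in Control DMBA TPA, and 9 of the 10 rose. Cdh5, a defining junction gene of endothelium, had 4.17 and 8.73 CPM in DMBA/TPA and 0 counts in both Control DMBA TPA libraries. The 8 fibroblast markers summed to 1155 and 3273 CPM in DMBA/TPA, against 18.1 and 33.3 CPM in Control DMBA TPA, and 7 rose. Emcn and Tie1, further endothelial genes, were also at 0 counts in both Control DMBA TPA libraries. The T cell sum was 72.4 and 61.6 CPM in DMBA/TPA, against 204 and 192 CPM in Control DMBA TPA, and the macrophage sum 90.6 and 132 CPM in DMBA/TPA, against 102 and 72.1 CPM in Control DMBA TPA. Of 9 macrophage markers 6 rose and 1 fell, of 6 pericyte and smooth muscle markers 5 rose and 1 fell, and of 7 T cell markers 1 rose and 6 fell. Of 6 sebocyte markers 1 fell, of 6 hair follicle markers 3 fell, and of 6 adipocyte markers the 2 measured were not called. The part of these cells in the results above was not tested.

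Beside these sums, Epas1 lay between 30.1 and 48.1 CPM in all 6 libraries that received no TPA, in which the endothelial sum ran from 1.08 to 16.7 CPM. Control DMBA 1 had an endothelial sum of 16.7 CPM and Epas1 at 36.2 CPM, and Control DMBA 2 had 7.33 CPM and 48.1 CPM. The DMBA libraries had sums of 4.46 and 3.37 CPM and Epas1 at 47.5 and 42.3 CPM. Control DMBA TPA was the lowest group in both, with sums of 1.08 and 1.9 CPM and Epas1 at 30.1 and 33.8 CPM. Whether endothelial cells account for Epas1 was not tested. Within DMBA/TPA, library 2 was higher than library 1 in endothelial and fibroblast sums and in Epas1, Vegfa, Egln1, Hif1a, Egln2 and Vhl, but not in Egln3 or Hif1an. The collagen genes Col1a1, Col1a2 and Col3a1 made up most of the fibroblast sum. Of the fibroblast markers, only Dcn (6.37 and 1.37 CPM) and Lum (3.74 and 1.84 CPM) were lower in library 2. In the DMBA comparison the endothelial and fibroblast sums were lower in the DMBA libraries, in which Egln3 and Vegfa were higher. The endothelial sum was 4.46 and 3.37 CPM in DMBA, against 16.7 and 7.33 CPM in Control DMBA, and the fibroblast sum 33.5 and 48.5 CPM in DMBA, against 1007 and 459 CPM in Control DMBA.

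**Figure D5:**
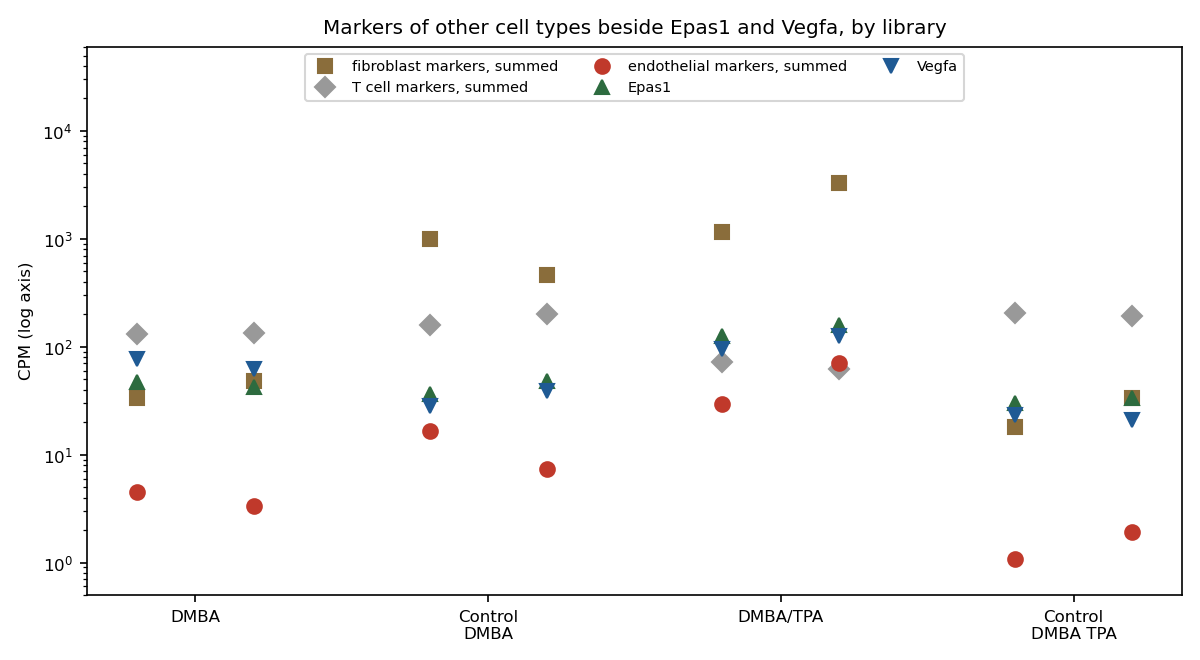
Summed CPM of fibroblast, T cell and endothelial markers and CPM of Epas1 and Vegfa (vertical log axis), with 1 symbol per library in pairs by group. The endothelial sum is 29.4 and 70.2 in DMBA/TPA against 1.08 and 1.9 in Control DMBA TPA, and in the 6 libraries without TPA Epas1 lies between 30.1 and 48.1, lowest in Control DMBA TPA.

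Of the 5 lists, the glycolysis genes had the highest median in DMBA relative to Control DMBA, where 14 of 18 had both DMBA libraries above both Control DMBA libraries, 0 had both below, and the median log2 fold change was 0.35. For HIF targets outside glycolysis it was 13 above and 1 below of 23 (median 0.20), for other hydroxylases 4 above of 9 (median 0.06), for HIF partners 3 above and 2 below of 18 (median 0.01), and for the VEGF family 2 above and 3 below of 8 (median -0.28). These counts stand beside the 19.1% above and 20.2% below over all genes and were not tested.

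Genes with the most similar pattern over the 8 libraries were found by Pearson's r of log2 CPM among 10776 protein-coding genes. For Vegfa these were Atp5mpl, a small subunit of mitochondrial ATP synthase (r = 0.993), the glycolytic enzyme gene Pgk1 (0.993), the replication factor gene Mcm10 (0.990), the succinate dehydrogenase subunit gene Sdhd (0.989) and the glycolytic enzyme gene Tpi1 (0.988). Egln1 came 20th for Vegfa among these genes, with r = 0.982, and Egln3 came far lower, at rank 941 with r = 0.887. Spearman's rho with Vegfa was 0.976 for Egln1, the same as for Pgk1, Mcm10 and Sdhd, and 1 for Atp5mpl and Tpi1. For Egln3 the nearest were Wdfy4, a protein of antigen cross-presentation (0.975), the receptor kinase gene Ephb2 (0.972), the repair gene Brca1 (0.972), the kinesin gene Kif26b (0.967) and Slc25a42, a mitochondrial coenzyme A carrier (0.961). All 5 share with Egln3 a higher level in DMBA than in DMBA/TPA on average. Kif26b, for one, had 156 and 139 CPM in DMBA, 114 and 128 CPM in DMBA/TPA, 62.9 and 62 CPM in Control DMBA and 34.3 and 43 CPM in Control DMBA TPA. By Spearman's rho the 5 genes nearest to Egln3 ran from 0.881 (Ephb2) to 0.952 (Slc25a42), an order unlike that by r. Of the 5 nearest to Vegfa, Pgk1, Mcm10 and Sdhd lay below Atp5mpl and Tpi1. The order among close genes thus depends on the measure. Several genes can share the same rho over 8 libraries, so no ranks by rho are given. The points of these correlations share libraries and group differences, and r is given as a description.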

How the data were processed

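The authors deposited raw counts for each Ensembl gene in a separate file per library. The submitters' processing notes name cutadapt, FastQC, Bowtie2, TopHat2 and mm10. The sources used here give neither versions nor the counting tool, its gene models or its use of strand. Dispase freed the epidermis and rRNA-depleted RNA went into directional libraries, per the labels' protocols. Before any test, the 5 summary rows were dropped (no gene, 32.9% to 42.1% of reads per library; ambiguous, 1.25% to 1.49%). GENCODE M21, on the same build, covered 99.5% of identifiers and supplied symbols, coordinates and exon lengths (the union of a gene's exons).

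edgeR 4.0.16 (R 4.3.3) fitted all 8 libraries with 1 mean per group, after filterByExpr with its minimum count at 10 and minimum total at 15, and TMM scaling with factors between 0.911 and 1.05. Its quasi-likelihood F test was adjusted by Benjamini-Hochberg over all 19450 genes, and a call is an adjusted p under 0.05. Each SE was obtained by dividing the size of the log2 fold change by the root of F. Similar patterns were sought among protein-coding genes with a full name (no clone or model names, no immune receptor segments) averaging 5 CPM or more, with a prior count of 2. In each list the 4 genes with the smallest adjusted p were named, except 1 that is not reported here. The members and lists were chosen with earlier results of these data known. Chi-square tests showed that no libraries of a group were copies (chi-square per degree of freedom between 11.6 and 67.7). Simulated counts with known changes gave back, for DMBA/TPA, 48 of 100 genes set 2-fold apart and 80 of 100 set 4-fold apart, and 4 of 19250 genes left alone were called. For the acetone groups these numbers were 54, 93 and 4. Each simulation changed 200 of 19450 genes around a mean common to all groups. In the data 40.7% of genes were called for DMBA/TPA, so these numbers do not give the power or error of that test. Alternatives were RLE and total-count scaling, no filter, DESeq2 1.42.0, limma 3.58.1 voom, the sample number as a block, the compared groups only, other acetone controls, a 2-fold minimum, and leaving out each library.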

Additional observations from a re-analysis of the deposited data

Results flagged for a closer look

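Hif1a lay on opposite sides of its acetone group in the 2 regimens: both DMBA/TPA libraries (150 and 173 CPM) lay above both Control DMBA TPA libraries (132 and 130 CPM), and both DMBA libraries (76.6 and 75.9 CPM) lay below both Control DMBA libraries (85.7 and 98.3 CPM). The DMBA/TPA difference did not pass its test (adjusted p = 0.0523), and the DMBA difference is a description. The DMBA/TPA response minus the DMBA response was 0.58 on the log2 scale, and this difference was not tested.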

How the results depend on the processing

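In DMBA/TPA relative to Control DMBA TPA, the calls of Egln1, Egln3, Epas1 and Vegfa held in each of 17 alternatives (2 of these use Control DMBA, whose libraries helped to select Egln3 and Vegfa, and are a description for that pair), and the number of the 9 genes called ran from 5 to 7. The count over all genes was 4632 with all 4 acetone libraries as control, 3766 against Control DMBA, 3860 at 2-fold or more, and 3704 to 8901 on leaving out a library. Total counts gave 3675 higher and 4489 lower genes, in place of 4356 and 3561, and put the median over all genes at -0.120 in place of -0.003, but left the members' calls as they were. Between the acetone groups, the count was 2451 without the low-count filter, 2087 by DESeq2, 1955 with the compared groups only, 743 at 2-fold or more and 43 to 2598 on leaving out a library. Of the 7 members tested there, 2 were called with the compared groups only, 0 at 2-fold or more (1 without that minimum by edgeR, by DESeq2 and by limma voom, and 4 at an unadjusted p under 0.05) and 0 to 3 on leaving out a library. Egln2 in DMBA/TPA changed sign against Control DMBA (-0.01), and Hif3a between the acetone groups did so without Control DMBA 2 (-0.17) and Control DMBA TPA 2 (-0.22), within -0.22 to 3.04 over all libraries left out. Where a group was left with 1 library, it was assumed to vary like the others. Unless stated, the cause of these changes was not tested.

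The sample numbers showed no sign of pairing the libraries: deviations of same-numbered libraries correlated between -0.152 and 0.035. Such correlations cannot exclude a pairing. With the replicate block the counts were 7607 and 834, the members' calls being the same. With the numbers of Control DMBA crossed, chosen after seeing the data, 1062 genes and 0 of the 7 members were called between the acetone groups.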
